A study of Homo sapiens with 12 samples.

Results

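Integrins, laminins, collagens and the metalloproteases of the ADAM, ADAMTS and MMP families were examined across the 3 siRNA groups of HCT116 cells. A gene was included when its platform symbol began with ITGA, ITGB, LAMA, LAMB, LAMC, ADAM or MMP, or with COL followed by a digit. FN1 and HSPG2 also belong to the set but were not analysed here. Each gene was represented by its brightest probe, that is, the probe with the highest mean log2 intensity over the 12 arrays. The rule found 77 genes of the 7452 genes with a named probe, and these were 12 integrin α subunits, 5 integrin β subunits, 3 genes named after integrins (ITGB1BP1, ITGB3BP and ITGBL1), 7 laminin chains, 22 collagen genes, 11 ADAM genes, 6 ADAMTS or ADAMTS-like genes and 11 MMP genes. Of these, ADAM21P1 and COL6A4P2 are annotated as pseudogenes, whose probes may also bind transcripts of related genes.

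HCT116 is an established human colorectal cancer line. All cells were reverse transfected with 5 nM siRNA, and RNA was taken after 24 h. The 3 groups had 4 arrays each. One received siLUC, a non-targeting siRNA named after luciferase, and the others received siLRH-1 #1 or siLRH-1 #2, a pair of different siRNAs against the nuclear receptor LRH-1. The study compared each LRH-1 siRNA with siLUC to find genes regulated by LRH-1, and its methods describe the replicates as independent biological ones. LRH-1 is encoded by NR5A2, which was not analysed here.

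Integrins are αβ heterodimers that anchor cells to the extracellular matrix and signal through adhesion complexes on their cytoplasmic tails. The ligands of many of them are laminins, which are αβγ trimers of the basement membrane, and collagens. Metalloproteases act on both sides of this contact, since most MMPs cleave matrix proteins and most active ADAMs shed membrane proteins such as growth factors and receptors. In the intestinal epithelium, integrins of the β1 family hold cells on a laminin-rich basement membrane, and the α6β4 integrin forms hemidesmosomes.

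Values below are the deposited quantile-normalized log2 intensities, and a fold change is a difference of group means on that log2 scale. Array medians lay between 6.49 and 6.50, and arrays of 1 group correlated at 0.996 or above over 16381 probes. The 12 arrays fell into a set of 7 and a set of 5 whose probe means were nearly equal. The mean absolute difference between the sets was 0.00318, against 0.0302 for the next closest of 2035 possible splits. The set of 5 held siLUC replicate 2, siLRH-1 #1 replicate 3 and siLRH-1 #2 replicates 2, 3 and 4. siLUC and siLRH-1 #1 were thus split alike over the sets, and siLRH-1 #2 was split the other way. The set as a block therefore cannot move a log2 fold change of siLRH-1 #1 against siLUC. siLUC and siLRH-1 #1 had 1 array each in the set of 5, and siLRH-1 #2 had 1 array in the set of 7. Values within a set that involve such a group have no replicates of it. No label names these sets. Values with the set as a block and within each set are given for the calls that they change. Of the markers of a colorectal epithelial cell, 8 of 10 had a probe, among them EPCAM and KRT19, and all 8 had a mean log2 intensity of at least 7. Of 12 fibroblast markers, DCN, COL1A1 and COL1A2 had a probe, with mean log2 intensities of 5.97 to 6.33 and 0 calls with either siRNA, also at an unadjusted p under 0.05. With siLRH-1 #1, the epithelial markers EPCAM and CDH1 were higher and KRT8, KRT18 and ELF3 were lower. These calls were 62.5% of the 8, against 34.5% of all genes whose brightest probe had a mean log2 intensity of at least 7. With siLRH-1 #2, 0 were called, against 13.7%. The epithelial list mean per array ran from 9.74 to 9.81 for siLUC, 9.68 to 9.73 for siLRH-1 #1 and 9.76 to 9.80 for siLRH-1 #2. Of 7 leukocyte markers 4 had a probe, of which CD14 and LYZ were at 6.12 and 6.11 and not called. HLA-DRA was higher and CD68 lower with siLRH-1 #1, which is 50% of the 4, against 23.5% of the brightest probes of all genes. The part of these shifts in the results was not tested.

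Most of the set gave weak signals. Only 26 of the 77 genes had a mean log2 intensity of at least 7, and 46 lay under 6.48, the median of all probe means. The weak signals were concentrated in certain families, as all 11 MMP genes, all 6 ADAMTS genes and 16 of 22 collagens were under that median, whereas 6 of 7 laminins and 4 of 5 integrin β subunits were at 7 or above. Levels of different genes are not compared further, because probes differ in how strongly they bind. A low array signal also does not show that a transcript is absent.

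With siLRH-1 #1, 8 of the 77 genes were higher and 7 were lower than with siLUC at an adjusted p under 0.05. This is 19.5% of the set, against 23.5% of the brightest probes of all genes (11.2% higher and 12.3% lower) and 17.2% of all probes. Within the 26 genes at a mean log2 intensity of 7 or more, 12 were called, or 46.2%, against 34.5% of all genes at that level. With siLRH-1 #2, 3 were higher and 1 was lower, or 5.19% of the set against 8.39% of all genes (4.41% higher and 3.97% lower) and 5.71% of all probes. At a mean log2 intensity of 7 or more these shares were 15.4% and 13.7%. The shares of the whole set were thus near or below those of the array as a whole. The median log2 fold changes of the set were 0.01 and 0.02 for the #1 and #2 siRNAs, and those of all genes were 0.01 and 0.00. Both comparisons share the 4 siLUC arrays, so their values are given side by side and not as independent findings. In RNA from whole cultures, fewer cells that express a gene and less RNA per cell cannot be told apart.

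**Figure D1:**
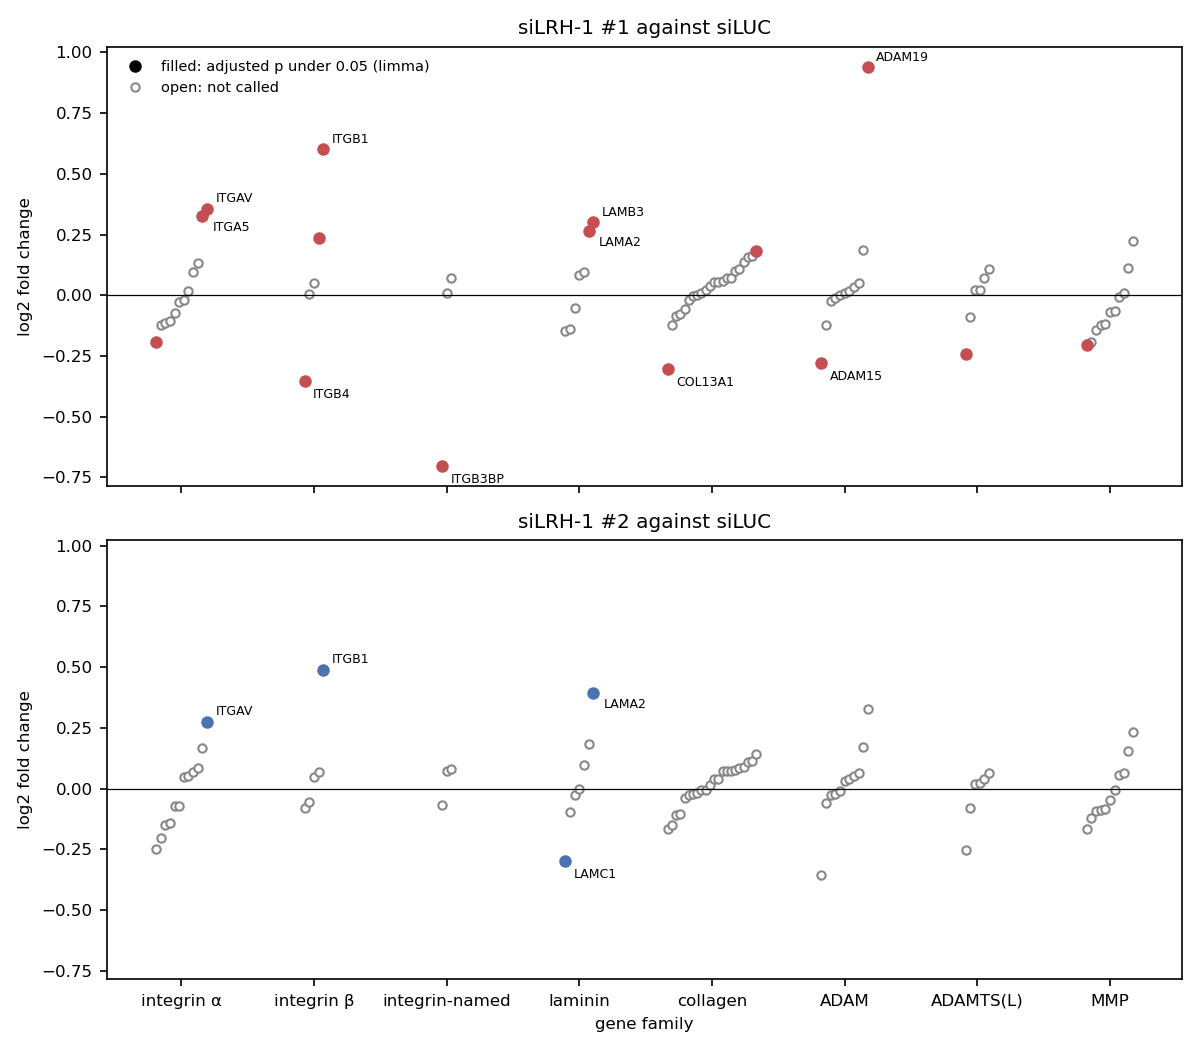
Log2 fold change of each of the 77 genes against siLUC (vertical axis) by family (horizontal axis), for siLRH-1 #1 in the upper and siLRH-1 #2 in the lower panel. Points are ordered by value within a family, filled points passed an adjusted p under 0.05 (15 in the upper panel and 4 in the lower), and names are given for filled points beyond 0.25 in either direction.

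Calls in the same direction with both LRH-1 siRNAs were made for 3 genes, all of them higher than with siLUC. They were ITGB1, the β subunit shared by most matrix-binding integrins, ITGAV, the αv subunit that pairs with several β subunits to bind matrix proteins such as vitronectin and fibronectin, and LAMA2, a laminin α chain best known from the basement membrane of muscle. Over all genes, 2.84% were higher with both siRNAs and 1.93% were lower with both. In the set, 0 genes were lower with both by limma. At an unadjusted p under 0.05, the counts were 4 higher and 3 lower, against 6.99% and 5.46% of all genes.

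The promoters of these 3 genes are printed here, together with those of ADAM19 and ITGA5, which differed most in the positive direction between the siRNAs. LRH-1 binds as a monomer to the site YCAAGGYCR, where Y is C or T and R is A or G. Only its core letters AAGGTCA or AAGGCCA were searched, on both strands, without the YC before them and without the form ending in G. TGANTCA, the letters bound by AP-1, was also searched and reads as itself on the opposite strand. The motifs do not overlap in these windows. Each window runs from 250 bases before to 50 bases after a start site in RefSeq, build GRCh38.p14, and is written 5′ to 3′ on the gene's strand with matches in capitals. ITGB1 lies on the minus strand of chromosome 10, and its first listed start is at chr10:32958181-32958480. For ITGAV, on the plus strand of chromosome 2, the second of 2 listed starts is shown, at chr2:186599955-186600254. LAMA2 is on the plus strand at chr6:128882888-128883187, ADAM19 on the minus strand at chr5:157575726-157576025, and ITGA5 on the minus strand at chr12:54419217-54419516.
ITGB1: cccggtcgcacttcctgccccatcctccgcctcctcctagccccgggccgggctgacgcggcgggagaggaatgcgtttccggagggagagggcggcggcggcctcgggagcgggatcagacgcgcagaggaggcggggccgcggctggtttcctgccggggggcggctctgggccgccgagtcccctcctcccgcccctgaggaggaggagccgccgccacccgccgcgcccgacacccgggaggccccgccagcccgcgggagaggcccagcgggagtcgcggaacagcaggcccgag
ITGAV: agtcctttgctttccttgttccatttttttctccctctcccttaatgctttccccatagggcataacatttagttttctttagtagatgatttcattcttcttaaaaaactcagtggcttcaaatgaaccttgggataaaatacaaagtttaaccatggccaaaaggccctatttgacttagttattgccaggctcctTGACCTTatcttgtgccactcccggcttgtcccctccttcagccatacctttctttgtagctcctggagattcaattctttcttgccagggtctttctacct
LAMA2: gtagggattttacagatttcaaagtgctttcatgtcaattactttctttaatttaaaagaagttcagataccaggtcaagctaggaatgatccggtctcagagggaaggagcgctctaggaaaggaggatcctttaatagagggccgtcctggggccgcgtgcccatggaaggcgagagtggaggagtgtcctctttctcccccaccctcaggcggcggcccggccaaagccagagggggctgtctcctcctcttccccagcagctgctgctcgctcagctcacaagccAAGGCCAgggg
ADAM19: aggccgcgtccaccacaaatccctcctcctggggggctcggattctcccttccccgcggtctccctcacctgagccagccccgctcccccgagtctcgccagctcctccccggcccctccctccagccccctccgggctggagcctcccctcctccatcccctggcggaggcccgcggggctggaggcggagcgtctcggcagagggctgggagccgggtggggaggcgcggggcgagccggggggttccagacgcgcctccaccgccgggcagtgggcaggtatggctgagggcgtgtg
ITGA5: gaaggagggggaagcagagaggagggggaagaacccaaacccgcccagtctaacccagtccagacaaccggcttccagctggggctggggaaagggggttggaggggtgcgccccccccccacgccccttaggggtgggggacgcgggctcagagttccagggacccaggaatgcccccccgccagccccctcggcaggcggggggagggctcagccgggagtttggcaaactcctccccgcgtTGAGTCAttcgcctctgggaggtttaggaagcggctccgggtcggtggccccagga
The letters AAGGTCA stood 52 bases before the second start of ITGAV, on the opposite strand, and the window at its first start held none of the motifs. On that strand the ITGAV letters followed AT, which is not the YC of the full site. AAGGCCA stood 39 bases after the start of LAMA2 and followed CC, which fits YC. Neither listed start of ITGB1 nor the start of ADAM19 had a match, and ITGA5 had 1 TGANTCA, which began 6 bases before the start. Either LRH-1 core, whatever letters stood before it, was found in 8.82% of 35116 promoter windows. Of the 49 genes of the set with a promoter entry, 5 held one in at least 1 of their windows (ADAMTSL5, COL7A1, ITGAV, ITGB5 and LAMA2), which is 10.2%. The 49 genes had 63 windows, so this share counts genes, whereas the 8.82% counts windows. A gene with several windows could match more easily, and the shares are not directly comparable. TGANTCA was found in 7.71% of all windows and in ITGA5, LAMB3 and MMP7. These matches describe letters in a window and carry no measure of binding.

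The signal of ITGB1 was 11.60, 11.43, 11.59 and 11.53 on the siLUC arrays, 12.25, 12.17, 12.13 and 12.02 with siLRH-1 #1, and 12.16, 11.96, 11.98 and 12.01 with siLRH-1 #2. Every knockdown array was above every siLUC array. ITGB1 rose by 0.60 (SE 0.0665, adjusted p = 4.21e-07) with siLRH-1 #1 and by 0.49 (SE 0.0665, adjusted p = 5.63e-05) with siLRH-1 #2, or 1.52-fold and 1.40-fold. The second ITGB1 probe gave 0.60 and 0.51 (adjusted p = 8.14e-07 and 5.63e-05). ITGB1 was called with both siRNAs under every alternative setting that kept more than 1 array in each group. Its values with siLRH-1 #1 and #2 were 0.70 and 0.56 within the set of 5 arrays and 0.57 and 0.59 within the set of 7.

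ITGAV read 8.20, 8.26, 8.25 and 8.15 with siLUC, 8.58, 8.64, 8.43 and 8.63 with siLRH-1 #1, and 8.51, 8.52, 8.56 and 8.36 with siLRH-1 #2. Again the knockdown arrays were all above the siLUC arrays. The log2 fold change of ITGAV for siLRH-1 #1 was 0.36 (SE 0.0645, adjusted p = 0.000273) and that for siLRH-1 #2 was 0.28 (SE 0.0645, adjusted p = 0.00953). Within the set of 5 arrays these changes were 0.17 and 0.23, and within the set of 7 they were 0.42 and 0.31. The siLRH-1 #1 value in the set of 7 passed the test, and the others each involve a group of 1 array.

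LAMA2 gave 7.17, 7.07, 7.09 and 7.13 with siLUC, 7.40, 7.39, 7.29 and 7.44 with siLRH-1 #1, and 7.72, 7.35, 7.57 and 7.39 with siLRH-1 #2. It rose by 0.26 (SE 0.0716, adjusted p = 0.011) and 0.39 (SE 0.0716, adjusted p = 0.00122), with all knockdown arrays above siLUC. Its second probe gave 0.18 (adjusted p = 0.0814) and 0.33 (adjusted p = 0.00364), so that the siLRH-1 #1 call was made by 1 probe of 2. LAMA2 was at 0.28 and 0.59 within the set of 7 arrays and at 0.22 and 0.37 within the set of 5. Of these, only the siLRH-1 #1 value in the set of 7 compares groups of more than 1 array, and it passed. Between the siRNAs, the 95% intervals of the difference were −0.02 to 0.25 for ITGB1, −0.05 to 0.21 for ITGAV and −0.28 to 0.02 for LAMA2. None of the 3 differences passed the test.

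**Figure D2:**
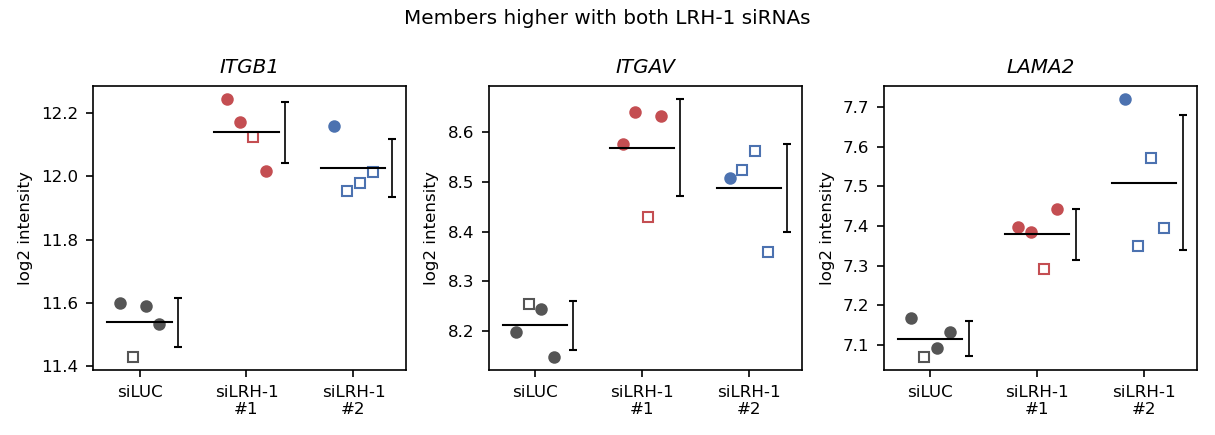
Log2 intensity (vertical axis) of ITGB1, ITGAV and LAMA2 on each array by siRNA group. Filled circles are arrays of the set of 7, open squares those of the set of 5, horizontal lines are group means and vertical bars are 1 SD to each side (n = 4). In each panel the 8 knockdown arrays lie above the 4 siLUC arrays.

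Among the other integrin α subunits, ITGA5 and ITGA3 passed the test with siLRH-1 #1, in opposite directions. ITGA5, which pairs with ITGB1 to form the classical fibronectin receptor, was 7.81, 7.98, 7.72 and 7.80 with siLUC, 8.12, 8.10, 8.38 and 8.02 with siLRH-1 #1, and 7.41, 7.58, 7.68 and 7.65 with siLRH-1 #2. The 3 groups did not overlap, with siLRH-1 #1 above siLUC and siLRH-1 #2 below it. The rise of ITGA5 with siLRH-1 #1 was 0.32 (SE 0.0783, adjusted p = 0.00438), and with siLRH-1 #2 the value was −0.25 (SE 0.0783, adjusted p = 0.0646). With the array set as a block, the latter was −0.37 (adjusted p = 0.000496). Within the set of 5 and the set of 7, each with a group of 1 array, it was −0.34 and −0.37. It also passed with only the probes at a mean log2 intensity of at least 7, with 16 added before log2, with only the 8 arrays of the comparison and without siLRH-1 #1 replicate 3, at values of −0.25 to −0.23.

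ITGA3, an α subunit for laminin that pairs with ITGB1, was 8.73 ± 0.05 (SD, n = 4) with siLUC. It was 8.54 ± 0.0708 with siLRH-1 #1, and the siLRH-1 #2 arrays gave 8.53 ± 0.0999. All knockdown arrays were below all siLUC arrays. The log2 fold changes were −0.19 (adjusted p = 0.0366) and −0.20 (adjusted p = 0.0599), so ITGA3 fell with siLRH-1 #1 and missed the threshold with siLRH-1 #2. The first call was lost without siLUC replicate 1, 2 or 4 or siLRH-1 #1 replicate 1, 2 or 3, with values of −0.22 to −0.16 over the arrays left out in turn, and the second was gained with the array set as a block (−0.24, adjusted p = 0.0338). ITGA2, a collagen receptor subunit, was called only between the siRNAs and is described with those genes. Of the other 8 α subunits (ITGAE, ITGA6, ITGA4, ITGA11, ITGA9, ITGA7, ITGA10 and ITGAX), none passed in any of the 3 comparisons. ITGAE, which pairs with ITGB7 and binds E-cadherin, had group means of 10.07, 10.05 and 10.14.

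Of the β subunits, ITGB5 rose and ITGB4 fell with siLRH-1 #1, and neither passed with siLRH-1 #2. ITGB5, a partner of ITGAV, was 9.86 ± 0.0819 (SD, n = 4) on siLUC arrays, 10.10 ± 0.0547 on siLRH-1 #1 arrays and 9.91 ± 0.0849 on siLRH-1 #2 arrays. Its change of 0.23 (adjusted p = 0.0101) with siLRH-1 #1 was seen on all 4 arrays, and 1 of its other probes was also called (0.20, adjusted p = 0.0341) while the dimmest was not (0.16, adjusted p = 0.172). The difference of ITGB5 between the siRNAs was 0.19 (adjusted p = 0.0505). ITGB4, the hemidesmosome subunit that pairs with ITGA6, read 7.83, 7.64, 7.69 and 7.65 with siLUC, 7.46, 7.19, 7.31 and 7.43 with siLRH-1 #1, and 7.66, 7.65, 7.57 and 7.61 with siLRH-1 #2. The siLRH-1 #1 arrays lay below all others, and ITGB4 fell by 0.35 (SE 0.0667, adjusted p = 0.000441) with that siRNA. Of its dimmer probes, at mean log2 intensities of 6.60 and 5.96, the first was also called with siLRH-1 #1 (−0.26, adjusted p = 0.00881) and the second was not (0.01, adjusted p = 0.966). The mean of the 3 ITGB4 probes fell by 0.20 and still passed. Its partner ITGA6 gave 0.10 and 0.08 with siLRH-1 #1 and #2, and neither value passed. ITGB2 and ITGB7, both leukocyte subunits, had log2 fold changes between −0.06 and 0.07.

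The 3 genes named after integrins are not receptor subunits. ITGB3BP encodes a nuclear protein, also known as CENPR, that binds nuclear receptors and is part of the centromere complex. It read 9.31, 8.95, 9.20 and 9.23 with siLUC, 8.49, 8.56, 8.33 and 8.49 with siLRH-1 #1, and 9.44, 9.07, 9.38 and 9.07 with siLRH-1 #2. The siLRH-1 #1 arrays were all below the other 8, and ITGB3BP fell by 0.70 (SE 0.0866, adjusted p = 2.16e-06) with siLRH-1 #1. With siLRH-1 #2 it was at 0.07 (adjusted p = 0.751), with a 95% interval of −0.11 to 0.25. ITGB1BP1, also called ICAP-1, binds the tail of the β1 subunit and restrains its activation. With group means of 10.47, 10.54 and 10.55 for siLUC, siLRH-1 #1 and siLRH-1 #2, its brightest probe was at 0.07 (adjusted p = 0.586) with siLRH-1 #1. The other ITGB1BP1 probe, with a mean log2 intensity of 7.11, disagreed, at −0.29 (adjusted p = 0.00158). ITGBL1 was not called.

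Each of the 3 laminin chain types had a member that passed a test. LAMA2 is described above. LAMB3, the β chain of the laminin on which epithelial cells build hemidesmosomes, was 7.36, 7.66, 7.65 and 7.77 with siLUC, 7.93, 7.63, 8.02 and 8.08 with siLRH-1 #1, and 7.51, 7.73, 7.61 and 7.49 with siLRH-1 #2. With siLRH-1 #1, 3 of 4 arrays were above all siLUC arrays and LAMB3 rose by 0.30 (SE 0.0901, adjusted p = 0.0205). The call was lost without siLUC replicate 1, siLRH-1 #1 replicate 3 or siLRH-1 #1 replicate 4, with values of 0.22 to 0.40 over the arrays left out in turn.

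LAMC1, the γ chain found in most laminin trimers, was the only gene of the set called lower with siLRH-1 #2 in the model of all 12 arrays without the array set. It read 9.79, 9.92, 9.72 and 9.79 with siLUC, 9.85, 9.74, 10.14 and 9.87 with siLRH-1 #1, and 9.39, 9.53, 9.56 and 9.54 with siLRH-1 #2. All siLRH-1 #2 arrays were below the 8 others, and the fall was 0.30 on the log2 scale (SE 0.0746, adjusted p = 0.0159). Without siLUC replicate 2 or without siLRH-1 #2 replicate 1 LAMC1 was no longer called with siLRH-1 #2, and with the array set as a block the value was −0.40 (adjusted p = 0.000259). Within the set of 5 and the set of 7 alone, each with a group of 1 array, it was −0.37 and −0.38.

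The remaining laminins, LAMA5, LAMB1, LAMB2 and LAMC3, were not called. LAMA5, the main laminin α chain of epithelial basement membranes, had group means of 10.47 ± 0.0379 (SD, n = 4), 10.33 ± 0.0361 and 10.37 ± 0.119, in the order siLUC, siLRH-1 #1, siLRH-1 #2. All 4 siLRH-1 #1 arrays and 3 of 4 siLRH-1 #2 arrays were below siLUC, at log2 fold changes of −0.14 (adjusted p = 0.154) and −0.10 (adjusted p = 0.483). LAMB1, a β chain of widespread laminins, was above siLUC on all 4 siLRH-1 #2 arrays, at 0.18 (adjusted p = 0.135), and its dimmer probe was at 0.06 (adjusted p = 0.792).

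Of the 22 collagens, COL4A5 was higher and COL13A1 lower with siLRH-1 #1, or 9.09% against 23.5% of all genes. With siLRH-1 #2, 0 of 22 were called, against 8.39% of all genes. An unadjusted p under 0.05 was found for 2 with siLRH-1 #2 (COL4A5 and COL8A1), against 23.4% of all genes. COL13A1, a transmembrane collagen of cell adhesion sites, read 6.99, 6.76, 7.03 and 6.89 with siLUC, 6.72, 6.49, 6.58 and 6.66 with siLRH-1 #1, and 7.02, 7.05, 6.89 and 6.86 with siLRH-1 #2. Its siLRH-1 #1 arrays lay below all the others, at a fall of 0.30 on the log2 scale (SE 0.0711, adjusted p = 0.00344). COL4A5, a type IV chain of the basement membrane, was 7.31 ± 0.0193 (SD, n = 4) on siLUC arrays, 7.49 ± 0.0973 on siLRH-1 #1 arrays and 7.45 ± 0.0634 on siLRH-1 #2 arrays. All 8 knockdown arrays were above siLUC, but only the change of 0.18 with siLRH-1 #1 passed (adjusted p = 0.0438), and that of 0.14 with siLRH-1 #2 did not (adjusted p = 0.205). The COL4A5 call was lost without any 1 of the siLUC arrays and without siLRH-1 #1 replicate 1, 3 or 4, with values of 0.15 to 0.22 over the arrays left out in turn.

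COL18A1, the source of endostatin, had group means of 7.76 for siLUC, 7.78 for siLRH-1 #1 and 7.66 for siLRH-1 #2. COL8A1 had the largest change among collagens with siLRH-1 #2, at −0.17 (adjusted p = 0.136), with a group mean of 6.12 for siLUC and of 5.95 for siLRH-1 #2. The fibrillar chains COL1A1, COL1A2, COL2A1, COL5A1, COL11A1 and COL11A2 lay between −0.15 and 0.14 with either siRNA. The other collagens (COL12A1, COL6A1, COL8A2, COL7A1, COL6A2, COL20A1, COL16A1, COL6A5, COL4A6, COL9A3, COL6A4P2 and COL23A1) lay between −0.09 and 0.16 with siLRH-1 #1 and between −0.04 and 0.11 with siLRH-1 #2.

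Among the ADAM genes, ADAM19 rose and ADAM15 fell with siLRH-1 #1. ADAM19, a sheddase of membrane-anchored growth factors such as neuregulin, gave 9.45, 9.99, 9.58 and 9.59 with siLUC. It was 10.55, 10.43, 11.01 and 10.38 with siLRH-1 #1 and 8.94, 9.37, 9.40 and 9.48 with siLRH-1 #2. The siLRH-1 #1 arrays were above the other 8, and 3 of 4 siLRH-1 #2 arrays were below siLUC. ADAM19 rose by 0.94 (SE 0.124, adjusted p = 5.25e-06) with siLRH-1 #1, or 1.92-fold, and its value with siLRH-1 #2 was −0.36 (SE 0.124, adjusted p = 0.0971).

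The siLUC array of the set of 5 had the highest ADAM19 signal of its group, and 3 of the 4 siLRH-1 #2 arrays were in that set. With the array set as a block the siLRH-1 #2 value was −0.60 and passed the test. It was −0.57 within the set of 5 and −0.60 within the set of 7, each with a group of 1 array. The siLRH-1 #1 value was 0.94 with the block, which could not move it, and 0.91 within the set of 7, and passed both times. Within the set of 5, where it compares 1 array with 1 array, it was 1.02. With the set as a block, ADAM19 and ITGA5 were thus called in opposite directions with the LRH-1 siRNAs. In the model of all 12 arrays without the set, 0 genes of the set were called so, against 0.0537% of all genes. These 2 genes alone had opposite changes there that each had an unadjusted p under 0.05, against 1.15% of all genes. Both were also called in opposite directions without siLRH-1 #1 replicate 3, where ADAM19 with siLRH-1 #2 was again at −0.36.

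ADAM15, which carries an integrin-binding disintegrin domain, read 10.72, 10.71, 10.79 and 10.98 with siLUC, 10.50, 10.70, 10.47 and 10.42 with siLRH-1 #1, and 10.78, 10.77, 10.73 and 10.81 with siLRH-1 #2. All siLRH-1 #1 arrays were below the rest, although replicate 2 lay close to the lowest siLUC array. The fall was 0.28 (SE 0.0701, adjusted p = 0.0063), and 1 of its 3 other probes was also called with siLRH-1 #1 (−0.36, adjusted p = 0.000749) while the other two were not (−0.19 and −0.05, adjusted p = 0.0557 and 0.746). ADAM17, which sheds TNF, was at −0.12 (adjusted p = 0.218) with siLRH-1 #1 and 0.05 with siLRH-1 #2. ADAM10, a sheddase of Notch and of the amyloid precursor protein, was at 0.05 and 0.17 (adjusted p = 0.746 and 0.265). The 2 dimmer probes of ADAM17 and the 1 of ADAM10 lay between −0.05 and 0.04 with either siRNA and were not called. Among the ADAM genes, the largest positive value with siLRH-1 #2 belonged to ADAM12, at 0.33 (adjusted p = 0.371). Its group means were 6.03, 6.22 and 6.36, and its siLRH-1 #2 arrays spread from 5.93 to 7.12. ADAM9, ADAM32, ADAM2, ADAM22, ADAM21P1 and ADAM21 lay between −0.06 and 0.06 with either siRNA.

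The ADAMTS and MMP genes had 2 calls with siLRH-1 #1 and 0 with siLRH-1 #2, where 3 had an unadjusted p under 0.05. With siLRH-1 #1 these were 16.7% of the ADAMTS and 9.09% of the MMP genes, against 23.5% of all genes. With siLRH-1 #2, 8.39% of all genes were called and 23.4% had an unadjusted p under 0.05. ADAMTSL5, an ADAMTS-like protein without a protease domain, was 6.60 ± 0.195 (SD, n = 4) in the control arrays, against 6.36 ± 0.0488 for siLRH-1 #1 and 6.34 ± 0.0905 for siLRH-1 #2. Its log2 fold changes were −0.24 (adjusted p = 0.0321) and −0.25 (adjusted p = 0.053). The siLUC arrays of ADAMTSL5 were 6.46, 6.85, 6.43 and 6.64, and the siLRH-1 #1 call was lost without siLUC replicate 2 or 4 or siLRH-1 #1 replicate 2 or 3, with values of −0.30 to −0.16 over the arrays left out in turn. MMP19, a secreted protease of basement membrane proteins, was 6.04 ± 0.0433 (SD, n = 4), 5.83 ± 0.102 and 5.87 ± 0.124 in the same order of groups. Its log2 fold changes were −0.21 (adjusted p = 0.0379) and −0.17 (adjusted p = 0.184). The MMP19 call was lost without siLUC replicate 2, 3 or 4 or siLRH-1 #1 replicate 2 or 3, at values of −0.23 to −0.16. All of its group means were below the median of all probe means.

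MMP7 or matrilysin, the epithelial MMP, had group means of 6.36, 6.58 and 6.42. Its change of 0.22 with siLRH-1 #1 was not called (adjusted p = 0.17), but a second MMP7 probe with the same change was (0.22, adjusted p = 0.0492), and the siLRH-1 #1 arrays of the brighter probe ran from 6.38 to 7.05. MMP15, a membrane-type MMP, had group means of 6.32, 6.33 and 6.48, at 0.01 and 0.16 (adjusted p = 0.954 and 0.287). MMP11 was below siLUC on all 4 siLRH-1 #1 arrays, at −0.19 (adjusted p = 0.0721). ADAMTSL4, the brightest ADAMTS-family gene after ADAMTSL5, had group means of 6.20, 6.31 and 6.23 and was not called. MMP23B, MMP28, MMP1, MMP25, MMP8 and MMP3 lay between −0.14 and 0.11 with either siRNA, and ADAMTSL4, ADAMTS13, ADAMTSL3, ADAMTS8 and ADAMTS15 between −0.09 and 0.11.

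The siRNAs were also compared with each other, which tests a difference that calls against siLUC do not. Of the 77 genes, 10 differed, 4 of them higher with siLRH-1 #1 and 6 higher with siLRH-1 #2. This is 13.0% of the set against 18.1% of all genes (8.17% higher and 9.89% lower with siLRH-1 #1) and 12.6% of all probes. At a mean log2 intensity of 7 or more, 30.8% of the set differed, against 27.4% of all genes. ADAM19 had the largest positive difference of all 16381 probes, at 1.30 on the log2 scale (SE 0.124, adjusted p = 1.26e-07). ITGA5 differed by 0.57 (SE 0.0783, adjusted p = 1.51e-05), LAMC1 by 0.39 (SE 0.0746, adjusted p = 0.00069) and LAMB3 by 0.33 (SE 0.0901, adjusted p = 0.0161). The genes higher with siLRH-1 #1 thus came from the integrin α, laminin and ADAM families.

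Higher with siLRH-1 #2 were ITGB3BP, with a difference of −0.78 for siLRH-1 #1 minus siLRH-1 #2 (SE 0.0866, adjusted p = 1.22e-06), COL13A1 at −0.34 (adjusted p = 0.00163), ITGA2 at −0.29 (adjusted p = 0.0221), ITGB4 at −0.27 (adjusted p = 0.0063), ADAM15 at −0.25 (adjusted p = 0.0179) and MMP9 at −0.24 (adjusted p = 0.0255). ITGB3BP, COL13A1, ITGB4 and ADAM15 were also called against siLUC with siLRH-1 #1. ITGA2 and MMP9 were called against siLUC with neither siRNA.

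ITGA2, the α subunit of a collagen receptor with ITGB1, read 7.50, 7.25, 7.41 and 7.06 with siLUC, 7.31, 7.12, 7.06 and 7.23 with siLRH-1 #1, and 7.61, 7.49, 7.51 and 7.28 with siLRH-1 #2. The siLUC arrays overlapped both other groups, and the log2 fold changes were −0.12 (adjusted p = 0.383) and 0.17 (adjusted p = 0.307). MMP9, gelatinase B, which degrades denatured and basement membrane collagen, was 5.88, 5.80, 5.88 and 5.75 with siLUC, 5.78, 5.98, 5.67 and 5.86 with siLRH-1 #1, and 6.20, 6.09, 5.97 and 5.97 with siLRH-1 #2. All siLRH-1 #2 arrays were above siLUC, at 0.23 (adjusted p = 0.0542), but all 12 values lay in the dim range. Their mean, 5.903, was under 5.919, the 5th percentile of probe means. The differences of ITGA2, MMP9, LAMB3 and ADAM15 were lost when single arrays were left out, siLRH-1 #1 replicate 3 and siLRH-1 #2 replicate 1 each among them, and over the arrays left out in turn they ran from −0.35 to −0.25, from −0.29 to −0.19, from 0.27 to 0.42 and from −0.31 to −0.22. The difference of ITGB4 was lost with the mean of its 3 probes (−0.13), and its dimmer probes were at −0.18 and 0.08 (adjusted p = 0.087 and 0.579). Those of ADAM19, ITGA5, LAMC1 and ITGB3BP held under every alternative setting that was run, including fits of 1 set of arrays, where a compared group was 1 array.

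**Figure D3:**
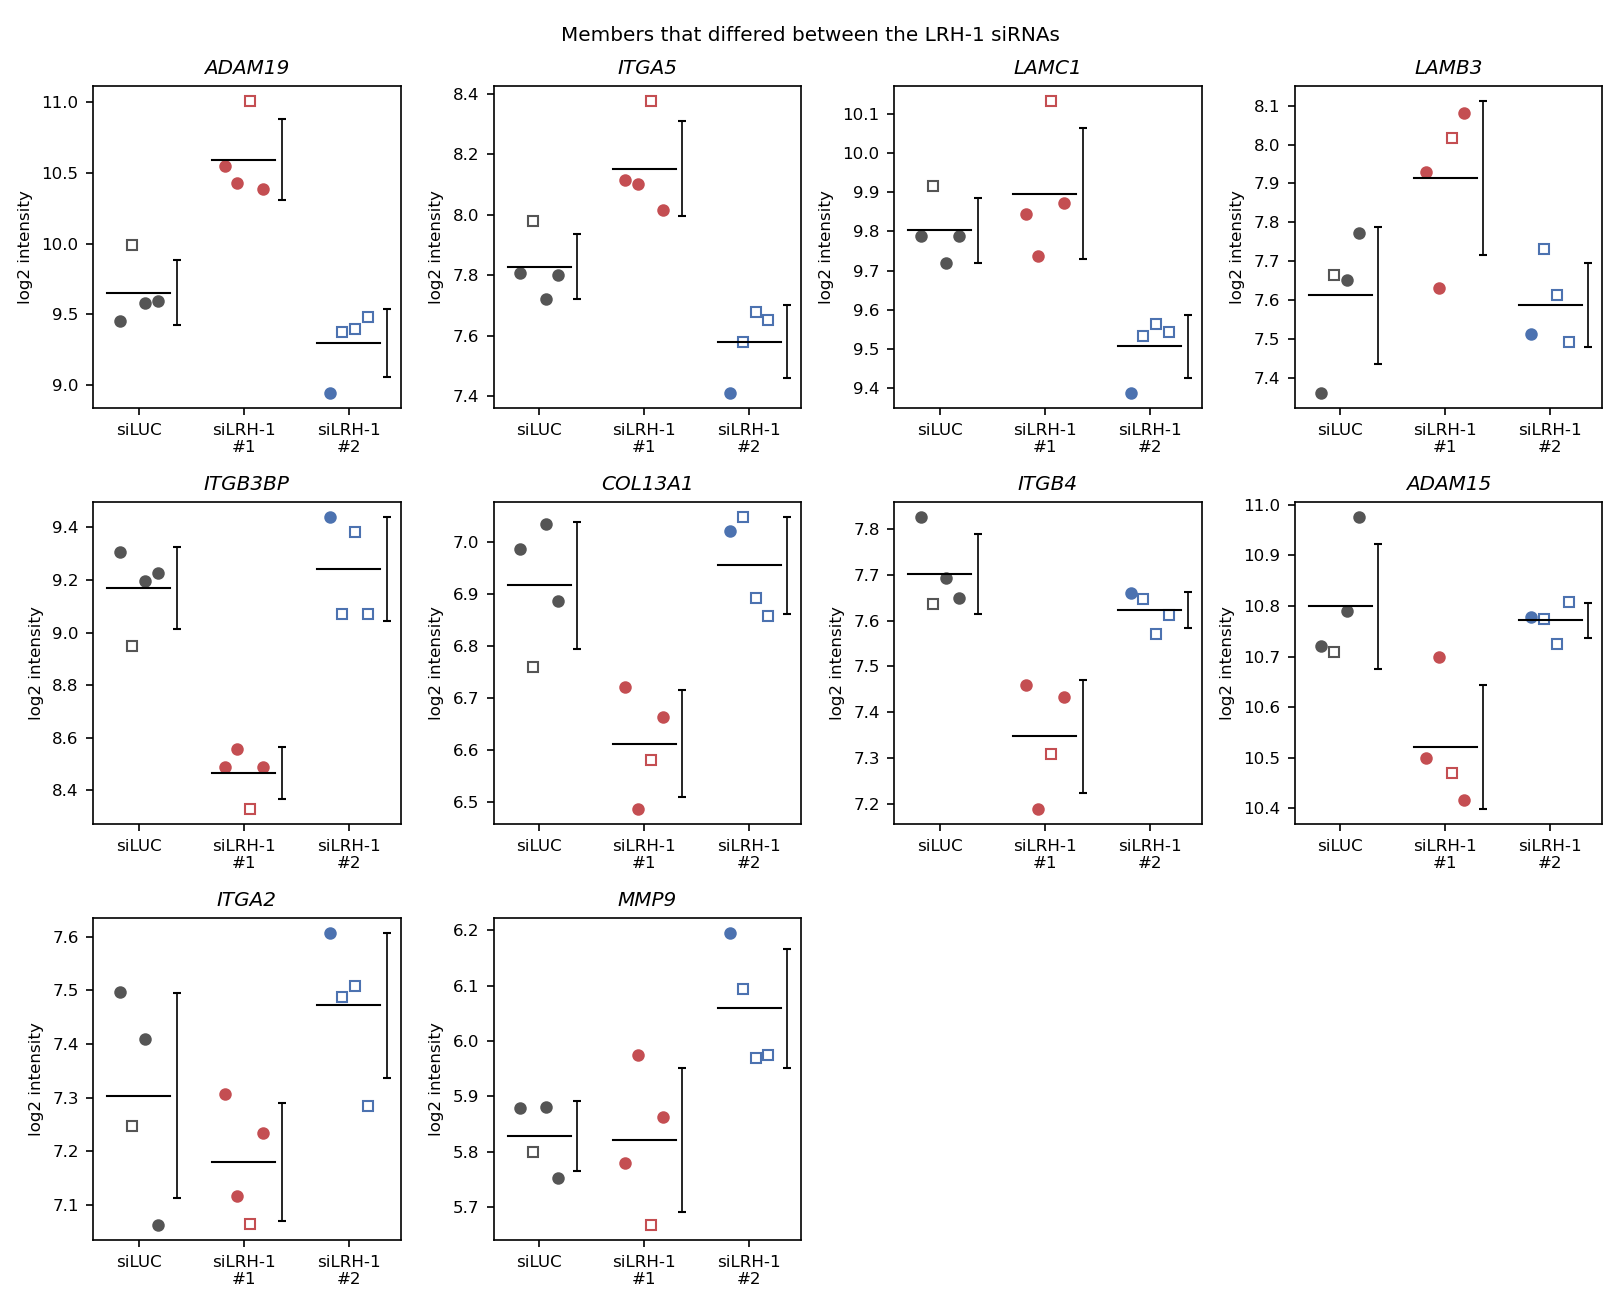
Log2 intensity (vertical axis) on each array by siRNA group for the 10 genes that differed between siLRH-1 #1 and siLRH-1 #2. Symbols are as in the plot of ITGB1, ITGAV and LAMA2, with filled circles for the set of 7, open squares for the set of 5, lines for means and bars for 1 SD to each side (n = 4). ADAM19, ITGA5, LAMC1 and LAMB3 are higher with siLRH-1 #1 and the other 6 are higher with siLRH-1 #2.

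The set of arrays as a block moved the siLRH-1 #2 values. It could not move the siLRH-1 #1 values, because siLUC and siLRH-1 #1 were split alike over the sets. With the set as a block, the count with siLRH-1 #2 was 9 in place of 4 and that with siLRH-1 #1 stayed at 15. The genes gained with siLRH-1 #2 were ADAM19 and ITGA5 as above, ITGA3 (−0.24, adjusted p = 0.0338), ADAMTSL5 (−0.29, adjusted p = 0.0323) and MMP9 (0.30, adjusted p = 0.00784). Calls with both siRNAs then numbered 5, with ITGA3 and ADAMTSL5 lower beside ITGB1, ITGAV and LAMA2 higher. Within 1 set of arrays, where fewer arrays were fitted, many calls were lost. With siLRH-1 #1, the set of 5 compares 1 array with 1 array, so a call there has no replicates behind it. ITGB1 and ADAM19 were called in the set of 7 and were at 0.70 and 1.02 in the set of 5. ITGAV, LAMA2, ITGA5, ITGB4, ITGB3BP, COL13A1 and ADAM15 were called in the set of 7 but not in the set of 5, where ITGA5 was at 0.40, ITGB4 at −0.33, ITGB3BP at −0.62, COL13A1 at −0.18 and ADAM15 at −0.24. The other 6 genes were called in neither set. In the set of 5 and the set of 7, respectively, ITGA3 was at −0.24 and −0.18, ITGB5 at 0.29 and 0.22, and LAMB3 at 0.35 and 0.29. COL4A5 was at 0.26 and 0.15, MMP19 at −0.17 and −0.22, and ADAMTSL5 at −0.54 and −0.14. Each kept its direction in both sets, of which the set of 5 compares 1 array with 1 array. Of the 10 differences between the siRNAs, those of ADAM15, ITGA2, ITGB4, LAMB3 and MMP9 were called in neither set and that of COL13A1 in the set of 7 alone. The difference of LAMC1 was 0.59 in the set of 5. In each set, 1 of the siRNA groups in these differences was a single array.

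Over all probes the block raised the calls with siLRH-1 #2 from 936 to 1428.

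**Figure D4:**
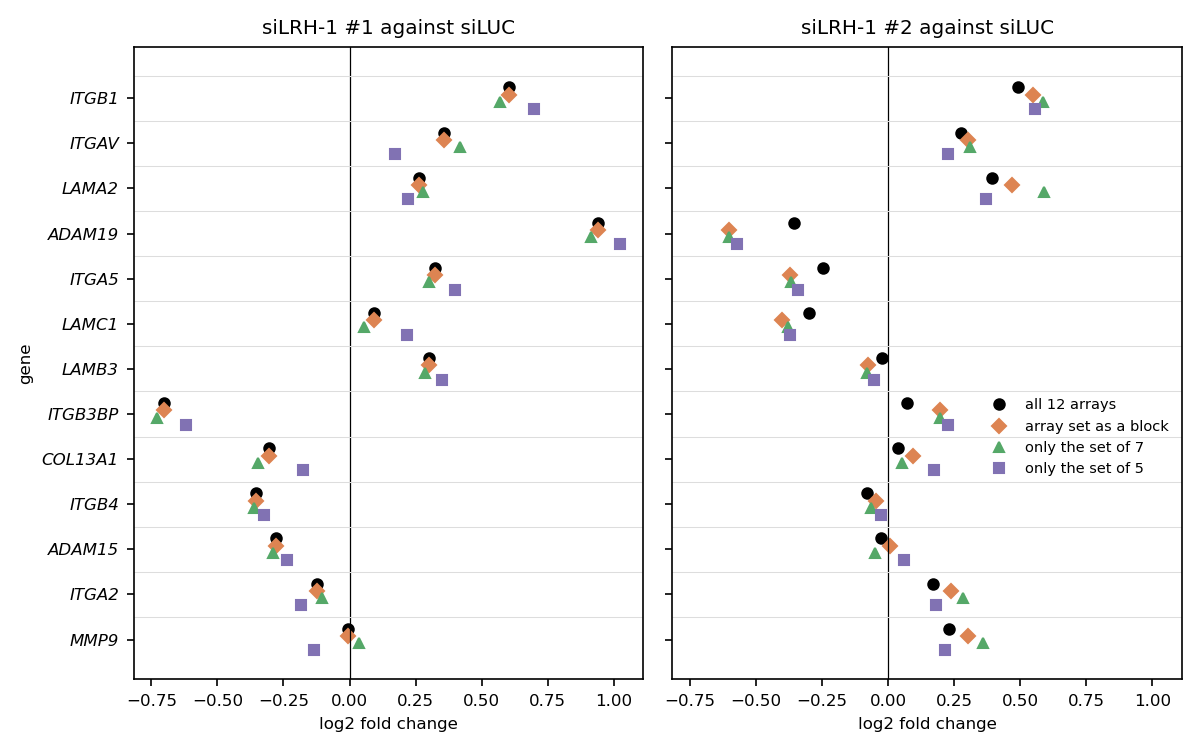
Log2 fold change against siLUC (horizontal axis) of 13 genes (vertical axis) with siLRH-1 #1 on the left and siLRH-1 #2 on the right. Circles use all 12 arrays, diamonds have the array set as a block, triangles use only the set of 7 and squares only the set of 5. For ADAM19 with siLRH-1 #2, the value of −0.36 with all arrays lies closer to 0 than the other 3, which run from −0.60 to −0.57.

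Genes that work beside the set were followed in 4 lists. Of the integrin adhesion complex, which links the tails of integrins to actin, 20 of 46 listed genes had a probe. With siLRH-1 #1, 0 were higher and 1 was lower, or 5% against 23.5% of all genes. With siLRH-1 #2, 1 was higher and 1 was lower, or 10% against 8.39%. The median log2 fold changes were −0.05 and −0.02. Of the 20, 15 had a mean log2 intensity of at least 7, where 34.5% and 13.7% of all genes were called. Between the siRNAs, 2 were higher and 2 lower with siLRH-1 #1, or 20% against 18.1% of all genes. GIT1, an adaptor that binds paxillin, fell with both siRNAs, by 0.25 (adjusted p = 0.0419) and 0.43 (adjusted p = 0.00227). CD47, an integrin-associated receptor for thrombospondin, was higher with siLRH-1 #2 (0.44, adjusted p = 0.0136). The kindlins FERMT1 and FERMT2 and the kinase ILK, which act directly on β subunit tails, were not called.

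Of the matrix glycoproteins and proteoglycans, 11 of 40 had a probe. With siLRH-1 #1 the glypican GPC1 was higher (0.20, adjusted p = 0.0432), and with siLRH-1 #2 the glypican GPC4 was higher (0.40, adjusted p = 0.000858). The list's median changes were 0.00 and 0.05. Its calls against siLUC were 9.09% of the list with each siRNA, against 23.5% and 8.39% of all genes. For siLRH-1 #1 minus siLRH-1 #2, GPC4 differed by −0.26 (adjusted p = 0.0137) and FBLN1 by −0.33 (adjusted p = 0.00556). These were 18.2% of the list, against 18.1% of all genes. Of the enzymes of collagen synthesis and cross-linking, 9 of 29 had a probe. P3H3, of the prolyl 3-hydroxylase family, was the only call against siLUC, lower with siLRH-1 #1 (−0.33, adjusted p = 0.0112). That is 11.1% of the list, against 23.5% of all genes. For siLRH-1 #1 minus siLRH-1 #2, COLGALT1 differed by 0.34 (adjusted p = 0.0015), P3H3 by −0.36 (adjusted p = 0.0092) and CRTAP by −0.18 (adjusted p = 0.0487). These were 33.3% of the list, against 18.1% of all genes. Of the inhibitors and activators of matrix proteases, 6 of 35 had a probe. HPSE, the heparanase that cuts heparan sulfate chains, was lower with siLRH-1 #1 (−0.47, adjusted p = 0.000509) and not called with siLRH-1 #2 (0.15, adjusted p = 0.408). Its difference, siLRH-1 #1 minus siLRH-1 #2, was −0.63 (adjusted p = 3.1e-05). HPSE was the list's only call with siLRH-1 #1, or 16.7% against 23.5% of all genes. Most genes of these 3 lists were not analysed here, so the counts cover the measured ones alone.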

How the data were processed

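The study hybridised total RNA of HCT116 cells to 12 arrays of the Illumina HumanHT-12 v4 type, 4 per siRNA group as given by the labels. The authors read the images into GenomeStudio. Probes were dropped by them when no sample reached a detection p of 0.05, and the deposited log2 intensities were quantile-normalized in Partek. These log2 values were used as deposited. Quantile normalization makes the arrays' distributions alike, so a shift of most transcripts in 1 direction could not be seen. A table of non-normalized signals was not used here, because no label ties its 24 columns to samples. The number of arrays limits the precision.

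Probes were named from the platform annotation, in which 9910 of 16381 probes had 1 symbol, 4 had several and 6467 had none. All 77 genes were found in RefSeq, with 0 symbols changed. The limma package (3.58.1, under R 4.3.3) was used to fit 1 model of the 3 groups to every probe, which left 9 residual degrees of freedom beside 14.6 from the prior. Benjamini-Hochberg adjustment ran over all probes and 0.05 was the threshold. The script was tested on simulated data. Python 3.11.15 with matplotlib 3.10.9 drew the plots.

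The genes, lists and comparisons were chosen with earlier results of these data known, and a list is described by counts and medians only. Array values are given for ADAM19, for genes called alike with both siRNAs and for genes called between them. Group values are given for genes called with 1 siRNA, for the 2 brightest genes of each family and for the largest change of each family with each siRNA. LAMB1, ITGA6, ADAM10 and MMP11 are also given, as are the dimmer probes of the genes described singly. CD47, GPC1, GPC4, FBLN1, P3H3, COLGALT1, CRTAP, HPSE and the markers named were picked by their calls. The lists were the integrin adhesion complex, matrix glycoproteins and proteoglycans, collagen synthesis and cross-linking enzymes, inhibitors and activators of matrix proteases, and markers of epithelial cells, fibroblasts, leukocytes and endothelial cells. Of the 5 endothelial markers, 0 had a probe used here.

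Alternatives were a block for the replicate number, no moderation of the variance, an intensity trend, array weights, the 8 arrays of a comparison alone, an adjusted p under 0.01, a mean log2 intensity of at least 7, 16 added before log2, arrays centred on their medians, the mean of a gene's probes, each array left out in turn, and the sets of arrays as a block or 1 at a time. The sets of arrays were found from these same values and no label names them. Leaving out siLUC replicate 2 and siLRH-1 #2 replicate 1 together was also chosen after seeing the data.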

Additional observations from a re-analysis of the deposited data

Results flagged for a closer look

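The siRNAs against LRH-1 differed from each other in 10 genes, by limma's test of the difference itself over all probes. The differences of siLRH-1 #1 minus siLRH-1 #2 on the log2 scale were 1.30 for ADAM19, 0.57 for ITGA5, 0.39 for LAMC1 and 0.33 for LAMB3. They were −0.78 for ITGB3BP, −0.34 for COL13A1, −0.29 for ITGA2, −0.27 for ITGB4, −0.25 for ADAM15 and −0.24 for MMP9. Both siRNAs are directed against the same transcript, whose level was not analysed here.

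Of 54 groups of 4 arrays, those of the 18 genes called in any comparison, 2 had an array far from its group. LAMC1 was 9.39 in siLRH-1 #2 replicate 1, against 9.53 to 9.56 on the other arrays of that group. MMP19 was 5.68 in siLRH-1 #1 replicate 2, against 5.87 to 5.90 on the others. Chance sets apart about 1 in 20 such groups.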

How the results depend on the processing

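Of the alternative values of single genes, 1244 kept their side of the threshold, 110 lost a call, 38 gained one and 0 reversed a called value. Values that were not called could change sign, as for ADAM15 with siLRH-1 #2, which ran from −0.06 to 0.06. ITGB1 with both siRNAs, ADAM19 with siLRH-1 #1, and the differences of ADAM19, ITGA5, LAMC1 and ITGB3BP between the siRNAs were called under all settings. The count with siLRH-1 #1 (15) was 8 at an adjusted p under 0.01, 2 in the set of 5 arrays and 9 in the set of 7, where fewer arrays were fitted. With siLRH-1 #2 (4) it was 7 with array weights, 7 with 16 added before log2, 9 with the array set as a block and 2 without siLUC replicate 2 and siLRH-1 #2 replicate 1 together. Between the siRNAs (10) it was 6 with each probe's own variance, 6 at an adjusted p under 0.01, 4 in the set of 5, 5 in the set of 7 and 6 without that pair of arrays. Calls with both siRNAs (3) numbered 5 with array weights, 5 with 16 added before log2, 5 with the array set as a block and 1 in the set of 5. With single arrays left out, the counts ran from 10 to 15 with siLRH-1 #1, from 3 to 7 with siLRH-1 #2, from 6 to 11 between the siRNAs and from 3 to 4 with both. The count of 7 came without siLRH-1 #1 replicate 3, and that of 6 without siLRH-1 #1 replicate 3 or siLRH-1 #2 replicate 1. The fits of 1 set of arrays each held a group of 1 array, so calls and counts there that involve it have no replicates of that group. Beyond the smaller number of arrays or the stricter threshold, the cause was not tested. Over all probes, calls with siLRH-1 #2 numbered 936, 1428 with the array set as a block, 498 without siLRH-1 #2 replicate 1, 514 without siLUC replicate 2 and 229 without both.

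The replicate numbers did not pair the samples. After each probe's group mean was subtracted, the 12 correlations of what remained on same-numbered arrays lay between −0.04 and 0.04. With the replicate number as a block, the counts were 15 with siLRH-1 #1, 5 with siLRH-1 #2, 10 between the siRNAs and 4 with both. Most genes of the collagen, ADAMTS and MMP families lay near the dim end of the array, where small changes are hard to detect.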
